A study of Mus musculus with 7 samples.

Results

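HDAC1 binding at the chaperone genes of the mouse embryonic limb bud was described from the deposited list of HDAC1 peaks. The chaperone genes were the protein-coding genes whose symbols begin with Hsp, Dnaja, Dnajb or Dnajc, or with Cct followed by a digit from 2 to 8, in the GENCODE M21 annotation of the mm10 genome. This rule, which uses names and no measured value, gave 83 of 21851 protein-coding genes, on 19 chromosomes. A gene was counted as bound when at least 1 bp of a peak lay between 2 kb upstream and 1 kb downstream of the transcription start site (TSS) of any of its protein-coding transcripts.

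HDAC1 was measured by ChIP-seq, in which DNA fragments held by an antibody to a chromatin protein are sequenced, in 4 HDAC1 ChIP samples with 3 input samples of chromatin that was not precipitated. All samples were fore- and hindlimb buds pooled from 3 litters of wild-type Swiss Webster embryos at E11.5, with 40 to 44 somites, so each sample averages many embryos and all the cell types of both limb buds. The samples went into 1 deposited list of 15347 peaks with a position and a place in the ranking but no read count, no height and no value for a single sample. The error between replicates and the number of reads behind a peak could therefore not be given, and a weakly bound site can be missing from the list. The labelled tissue was not checked on marker genes, because a peak list holds no expression level.

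Molecular chaperones bind unfolded or partly folded proteins and help them fold, assemble, cross membranes or be degraded. HSP70 proteins do this in cycles of ATP hydrolysis that J-domain proteins (the Dnaj families) start and that nucleotide exchange factors such as the HSP110 proteins end. HSP90 acts on proteins close to their final fold, the chaperonins HSP60 and CCT enclose a protein in a ring-shaped chamber, and small heat shock proteins hold unfolded proteins without ATP. Some chaperone genes are active in every cell and others are switched on by heat shock, by stress in the endoplasmic reticulum (ER) or in a single tissue. HDAC1 is a histone deacetylase that removes acetyl groups from histones as part of larger complexes, and it is found at active as well as silent genes.

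Of the 83 chaperone genes, 56 (67.5%, 95% Wilson interval 56.8 to 76.6%) had an HDAC1 peak and 27 had none, against 44.1% of all protein-coding genes. These genes were bound by 71 distinct peaks out of 10757 at protein-coding TSS windows. A peak covered a TSS itself in 44 chaperone genes (53.0%, 42.4 to 63.4%) against 32.8% of all genes, and 26 (31.3%, 22.4 to 41.9%) had a peak among the first 3836 of the ranked list against 16.9%. More than 1 peak was found at 16 genes (19.3%, 12.2 to 29.0%) against 9.41% of all genes. Some of these peaks were nearest to the TSS of another gene. Examples are those at ranks 10000 (Hsp90b1, nearest to Ttc41), 7709 (Dnajc8, Atpif1) and 10123 (Dnajc14, Tmem198b). Others are at ranks 9819 (Hspbap1, Dirc2), 7717 and 12366 (both Hspb11, Lrrc42). The intervals cover only the counting of genes, which are not replicates of a condition, and neighbouring genes can share a peak.

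The share with a peak differed between the families. All 3 HSP90 genes (100.0%, 43.9 to 100.0%) and both HSP60/HSP10 genes had a peak, as did 11 of the 14 HSP70 and HSP110 genes (78.6%, 52.4 to 92.4%) and 6 of the 8 Cct genes (75%, 40.9 to 92.9%). Among the J-domain families a peak was present at 3 of 4 Dnaja genes (75%, 30.1 to 95.4%), 7 of 13 Dnajb genes (53.8%, 29.1 to 76.8%) and 18 of 28 Dnajc genes (64.3%, 45.8 to 79.3%). The small heat shock proteins had the lowest share, 2 of 7 genes (28.6%, 8.22 to 64.1%), and its interval overlaps that of every other family. It was 14.3% with windows of 500 bp on both sides of a TSS, and also with each peak credited to the gene with the nearest TSS alone, since both settings lose Hspb9. All 4 genes that carry an Hsp symbol without being heat shock proteins were bound.

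**Figure D1:**
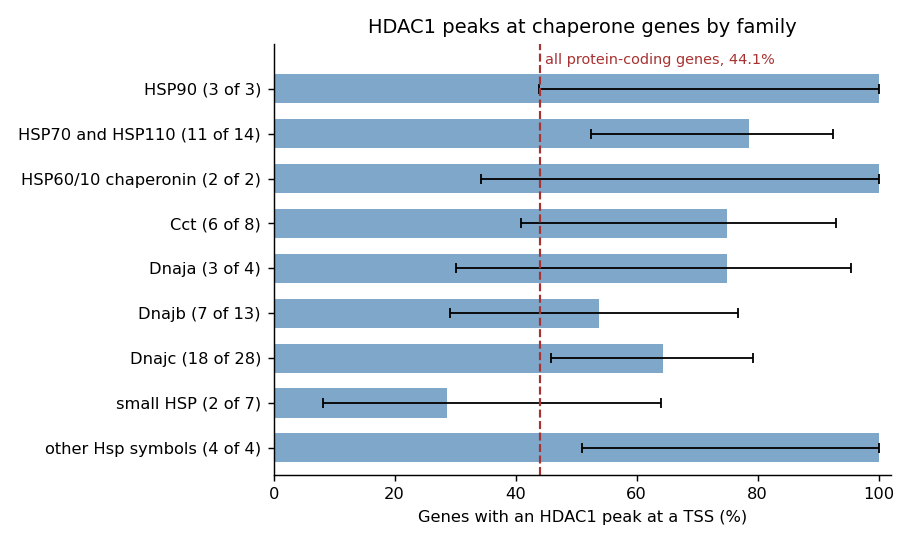
Percent of genes with an HDAC1 peak in each chaperone family (filled bars, horizontal axis in percent), with 95% Wilson intervals as thin lines and the 44.1% of all protein-coding genes as a dashed line. Only the small heat shock proteins have a share under that line, 28.6%.

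The plot of the shares shows how wide the intervals of the smaller families are. With 2 to 4 genes in the HSP90, HSP60/HSP10, Dnaja and other Hsp groups, even a share of 100.0% leaves a lower bound of 34.2 to 51.0%.

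The rank gives the place of a peak in the list, with 1 at the top. Over the 56 bound chaperone genes the best rank had a median of 4327.5 and ran from 132 to 15053, with quartiles at 1956.25 and 7112.25, beside a median of 5174.5 over all bound genes. The best ranked peak had a median length of 750 bp (200 to 2600 bp) against 650 bp over all bound genes. Rank and length are not separate measures here, because longer peaks stood higher in the list: Spearman's rho was -0.73 over the 71 peaks at chaperone genes and -0.75 over the 10757 peaks at TSS windows. Lengths were multiples of 50 bp in the deposited list.

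**Figure D2:**
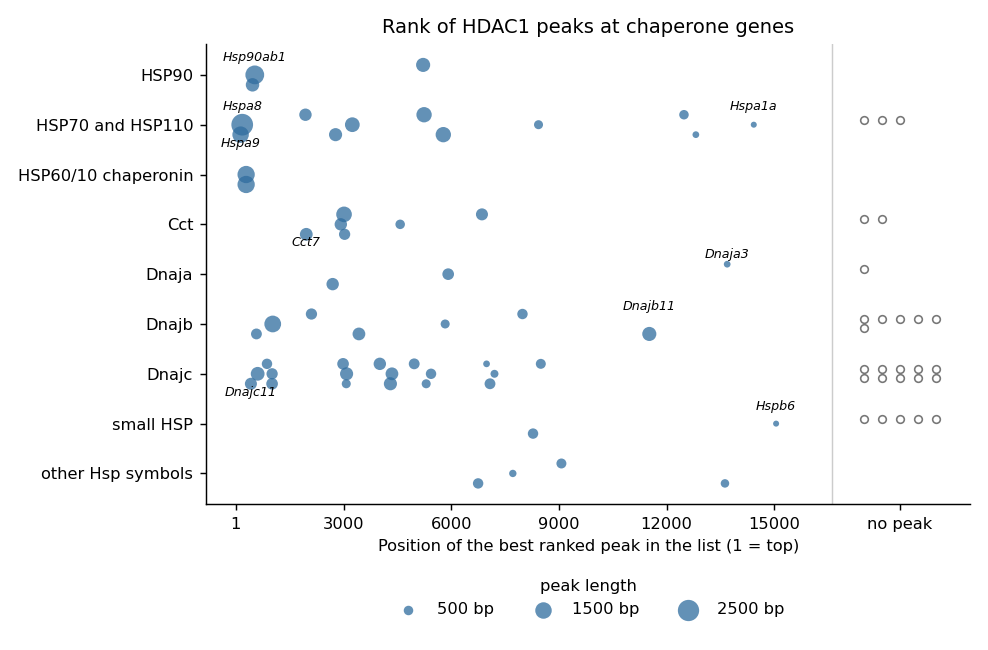
Best rank of each bound chaperone gene (horizontal axis, 1 is the top of the list) by family, with a filled point for each gene whose area follows the length of the peak and open points at the right for genes without a peak. Hspa9, Hspa8, Hspd1 and Hspe1 stand at ranks 132 to 286, whereas the bound small heat shock protein genes stand at 8280 and 15053.

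All HSP90 genes had a peak of 1000 bp or more, at very different ranks. Hsp90b1, which encodes the HSP90 of the ER, had a 1000 bp peak at rank 464 and a 500 bp peak at rank 10000. Hsp90ab1, the constitutive cytosolic HSP90, had a 1950 bp peak at rank 527, the second longest at any chaperone gene. Hsp90aa1, the cytosolic HSP90 induced by heat shock, had an 1100 bp peak at rank 5218, lower in the list than the best peaks of the other HSP90 genes.

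The HSP70 genes spanned almost the whole range of ranks. Hspa9, the HSP70 of the mitochondrial matrix, had the best ranked peak of all chaperone genes, at rank 132 and 1500 bp long. Hspa8, the constitutive cytosolic HSP70, had the longest, 2600 bp at rank 177, which ran from -84 bp to 2515 bp relative to its TSS. Hspa5, which encodes BiP, the HSP70 of the ER, had peaks at ranks 1939 (850 bp) and 9156 (300 bp). Hspa14, a ribosome-associated HSP70, had a 950 bp peak at rank 2778, which also covered TSSs of Cdnf and Gm45902. These HSP70 genes lay in the upper part of the list, with Hspa9, Hspa8 and Hspa5 among its first 1939 peaks.

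The Hspa1 genes and Hspa2 stood lower. Inducible genes of other families were spread, with examples at ranks 1010 (Dnajc3), 3429 (Dnajb1) and 5832 (Dnajb9) and no peak at Hspb1. Besides Dnajc3, promoters of 4 genes match a 3-unit motif of the heat shock response or a motif of the ER stress response. Of these, Hspd1 and Hspe1 stood at rank 286, Hsp90b1 at 464 and Hsp90aa1 at 5218. Whether rank goes with inducibility was not tested. Hspa1b, a heat-inducible HSP70, had a 1300 bp peak at rank 5780, and its near-identical copy Hspa1a had 2 short peaks, at ranks 14431 (200 bp) and 15117 (400 bp). Hspa1l, a testis HSP70 that starts 547 bp from Hspa1a on the opposite strand, had 3 peaks, at ranks 12486 (500 bp), 14431 and 15117. The last 2 are those of Hspa1a and none covered the TSS of Hspa1l. The peak at rank 12486 lies within the Hspa1a gene, downstream of the window of the Hspa1a TSS. Hspa2, an HSP70 of spermatocytes, had a 250 bp peak at rank 12817. The HSP110 genes Hsph1 (rank 3245, 1200 bp) and Hspa4 (rank 5244, 1300 bp), whose products release ADP from HSP70, had long peaks, and their relative Hspa4l had one of 450 bp at rank 8433.

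The 3 HSP70 genes without a peak were the distant family members Hspa12a, Hspa12b and Hspa13. The nearest peak to a TSS of Hspa13, which encodes a microsomal HSP70-like ATPase, was 591629 bp away. For Hspa12a and Hspa12b these distances were 82216 bp and 32908 bp.

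**Figure D3:**
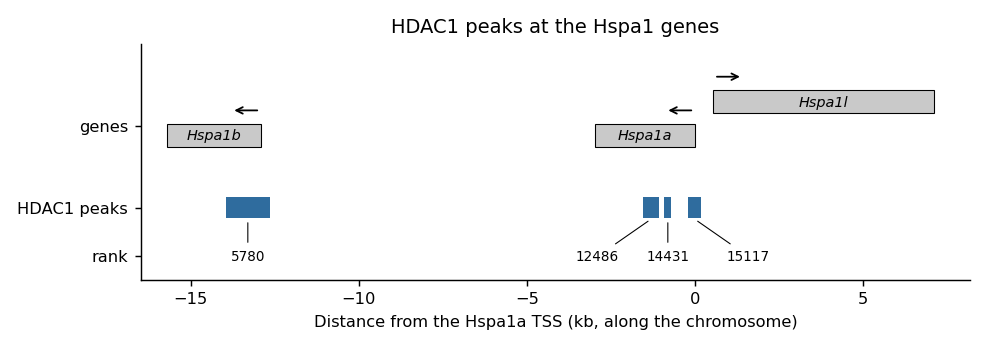
Map of the Hspa1 cluster on chromosome 17, drawn to scale as distance in kb from the TSS of Hspa1a, with genes as grey bars under arrows for their direction and HDAC1 peaks as boxes labelled by rank. The 1300 bp peak at rank 5780 lies at Hspa1b, and the 3 peaks at Hspa1a and Hspa1l are all 500 bp or shorter.

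The map of the Hspa1 cluster has to be read with the similarity of the 2 copies in mind. The 250 bp upstream of Hspa1a and of Hspa1b were identical at 247 positions (98.8%), and their coding sequences at 1915 of 1923 aligned positions (99.6%). Reads from one copy may have been placed on the other, so the division of signal between Hspa1a and Hspa1b is uncertain. The upstream sequences are printed here to show this similarity, 5′ to 3′ on the coding strand and ending at the base before the TSS, with capitals for the match to GAANNTTC, a form of the heat shock element made of 2 units. They lie on the minus strand of mm10, at chr17:34972157-34972406 for Hspa1a and at chr17:34959239-34959488 for Hspa1b.
Hspa1a: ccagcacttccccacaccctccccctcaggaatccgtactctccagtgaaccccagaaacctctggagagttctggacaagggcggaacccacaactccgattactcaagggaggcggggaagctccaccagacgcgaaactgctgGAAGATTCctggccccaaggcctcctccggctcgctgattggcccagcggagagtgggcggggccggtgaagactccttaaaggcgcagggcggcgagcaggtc
Hspa1b: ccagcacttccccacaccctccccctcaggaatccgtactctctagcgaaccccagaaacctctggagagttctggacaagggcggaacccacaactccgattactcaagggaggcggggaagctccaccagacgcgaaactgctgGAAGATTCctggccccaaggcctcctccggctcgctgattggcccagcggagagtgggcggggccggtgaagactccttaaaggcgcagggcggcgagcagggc
In both promoters the match ended 97 bp upstream of the TSS and lay inside a peak, at rank 15117 in Hspa1a and 5780 in Hspa1b. All 250 bases of the Hspa1b stretch and 193 of those of Hspa1a were covered by HDAC1 peaks.

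Hspd1 (HSP60) and Hspe1 (HSP10), whose products form the mitochondrial chaperonin and its lid, start 108 bp apart on opposite strands and shared both of their peaks. The first, at rank 286 and 1650 bp long, was at chr1:55087100-55088749 and covered both TSSs. The second, 250 bp at rank 14335, lay at chr1:55088900-55089149. The 107 bp between the TSSs, at chr1:55088025-55088131 on the plus strand, are printed here because this interval is the shared promoter and was covered in full by the first peak, with capitals for a GC box (GGGCGG or its complement) and for 2 overlapping matches to the heat shock element, GAANNTTC with a further GAA after any 2 bases, 1 on each strand.
Hspd1-Hspe1: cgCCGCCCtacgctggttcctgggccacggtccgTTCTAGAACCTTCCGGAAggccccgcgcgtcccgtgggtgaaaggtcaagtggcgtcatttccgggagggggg
The heat shock element matches occupied bases 35 to 47 and 40 to 52 of this sequence.

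The 8 genes that match the Cct rule comprised 6 subunits of the cytosolic CCT ring, which folds actin and tubulin, and 2 others. The subunit genes were all bound: Cct7 at ranks 1962 (900 bp) and 2953 (550 bp), Cct8 at 2924 (850 bp), Cct3 at 3014 (1350 bp) and Cct4 at 3030 (700 bp). Cct2 had a 500 bp peak at rank 4578 and Cct5 an 800 bp peak at rank 6857. The first peak of Cct7 also covered a TSS of its opposite-strand neighbour Pradc1, and the second was nearest to Pradc1. The peak of Cct3 also covered a TSS of Tsacc. Cct6b, a testis form of a subunit, and Cct8l1 had no peak, with the nearest ones 16629 bp and 13633 bp from a TSS.

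The ring has 8 subunits, of which 2 fall outside the rule. Cct6a is annotated in GENCODE M21 as a processed transcript (chr5:129786998-129846371, plus strand) and not as protein-coding, and had a peak of 850 bp at rank 3155. Tcp1, the first subunit, does not match by its symbol, and its best peak was 650 bp at rank 3198. With these, all 8 subunit genes had a peak, at best ranks from 1962 to 6857 with a median of 3092.5, a narrower span than the 132 to 14431 of the HSP70 genes.

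Among the Dnaja genes, which encode the J-domain proteins closest to bacterial DnaJ, the cytosolic Dnaja2 had peaks at ranks 2697 (850 bp) and 11046 (300 bp). Dnaja1, also cytosolic, had a 750 bp peak at rank 5916. The mitochondrial Dnaja3 had a 250 bp peak at rank 13690. Dnaja4 had none, with the nearest peak 65541 bp from a TSS, so 3 of the 4 Dnaja genes were bound.

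In the Dnajb family the best ranked peak was at Dnajb12 (rank 573, 650 bp), which encodes a J-domain protein of the ER membrane. Dnajb4 had a 1550 bp peak at rank 1027 that was nearest to the TSS of Fubp1, its neighbour on the opposite strand, and a 250 bp peak at rank 11327. Dnajb14, a relative of Dnajb12, had peaks at ranks 2106 (700 bp) and 4345 (1450 bp), the longer of them nearest to H2afz, a histone variant gene. Dnajb1, the classic HSP40 induced by heat shock, had a 900 bp peak at rank 3429. Dnajb9, an ER protein of the unfolded protein response, had peaks at ranks 5832 (450 bp) and 6971 (350 bp), and the lowest ranked gene was Dnajb11, an ER co-chaperone of BiP (rank 11520, 1100 bp).

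The 6 Dnajb genes without a peak were Dnajb2, Dnajb3, Dnajb5, Dnajb7, Dnajb8 and Dnajb13. Dnajb3, Dnajb7, Dnajb8 and the sperm flagellum gene Dnajb13 are known for expression in testis, and Dnajb2 for neurons. Their nearest peaks were 8000 to 71368 bp from a TSS. Dnajb5 came close to the window, with a peak 4365 bp from its TSS at rank 9989.

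The Dnajc family is the largest and most varied, with a J-domain joined to many other domains. Its best ranked genes were Dnajc11 of the mitochondrial membranes (rank 419, 800 bp) and Dnajc5, which encodes the cysteine string protein of synaptic vesicles (rank 607, 1050 bp). They were followed by the histone chaperone gene Dnajc9 (rank 867, 600 bp), Dnajc16 (rank 1009, 750 bp) and the ER stress gene Dnajc3 (rank 1010, 700 bp). The lowest ranked was Dnajc6, the auxilin that uncoats clathrin vesicles in neurons (rank 8497, 550 bp).

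Dnajc2, which encodes a ribosome-bound J-domain protein, had the most peaks in the family, 3, at ranks 3085 (950 bp), 8164 (300 bp) and 9647 (450 bp). Its neighbour Psmc2 on the opposite strand starts 32 bp away. The first peak covered the TSSs of both genes, and the others were nearer to Psmc2. Dnajc14 had peaks at ranks 4011 (850 bp) and 10123 (750 bp), and the splicing factor gene Dnajc8 at 5438 (600 bp) and 7709 (650 bp). The remaining 10 bound Dnajc genes, which comprise Dnajc1, Dnajc7, Dnajc10, Dnajc13, Dnajc15, Dnajc19, Dnajc21, Dnajc25 and Dnajc30 besides the auxilin gene, had 1 peak each.

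The 10 Dnajc genes without a peak were Dnajc4, Dnajc5b, Dnajc5g, Dnajc12, Dnajc17, Dnajc18, Dnajc22, Dnajc24, Dnajc27 and Dnajc28. Dnajc5b and Dnajc5g are paralogs of the bound Dnajc5, with nearest peaks 96803 bp and 12558 bp away. Dnajc24, which takes part in diphthamide synthesis, was the gene farthest from any peak, at 604050 bp. Dnajc4 was the closest to being counted, with a peak 3697 bp from a TSS at rank 15180, or 1697 bp outside the window.

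Among the small heat shock proteins Hspb9, a testis gene, had a 600 bp peak at rank 8280 that was nearest to the TSS of Kat2a, a histone acetyltransferase gene. Hspb6, which is abundant in muscle, had a 200 bp peak at rank 15053, the lowest best rank of any chaperone gene. Hspb1 (HSP27), the muscle genes Hspb2, Hspb3 and Hspb7, and Hspb8 had none. Their nearest peaks were 15596 bp (Hspb2), 23521 bp (Hspb7), 44927 bp (Hspb3), 45832 bp (Hspb1) and 398365 bp (Hspb8) from a TSS.

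The 4 other Hsp symbols name genes of different function. Hspg2, which encodes the basement membrane proteoglycan perlecan, had a 600 bp peak at rank 6750. Hspb11, an intraflagellar transport gene also known as Ift25, had 3 peaks at ranks 7717 (300 bp), 7984 (600 bp) and 12366 (300 bp). Hspbap1, named for an HSP27-binding protein, had peaks at ranks 9071 (550 bp) and 9819 (400 bp). Hspbp1, an exchange factor of HSP70, had a 400 bp peak at rank 13628. None of them was among the first 3836 peaks.

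Over all families, the nearest peak to the 27 unbound genes was at a median distance of 28005 bp, and it lay within 10 kb for 3 of them (Dnajb5, Dnajb7 and Dnajc4). The 4 bound genes with peaks nearer to another gene only were Dnajc7 (Nkiras2), Dnajc25 (Gm20503), Hspb9 (Kat2a) and Hspa1l (Gm20481 for its best ranked peak and Hspa1a for the others). The other 52 (92.9%, 83.0 to 97.2%) had a peak nearest to themselves, ties with a neighbour included.

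A protein-coding TSS on the opposite strand lay within 1 kb of a TSS in 21 chaperone genes, of which 17 (81.0%, 60 to 92.3%) had a peak, against 79.2% of all genes with such a neighbour. Of the other 62 genes 39 (62.9%, 50.5 to 73.8%) had a peak, against 40.0%. Among the 9 chaperone genes with a single exon in every protein-coding transcript 4 were bound (44.4%, 18.9 to 73.3%), against 23.8% of all such genes. The bound ones were Dnajc30, Hspa1a, Hspa1b and Hspb9.

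Peaks tended to lie over the start of the transcribed part. For the 34 chaperone genes whose best peak covered the reference TSS, it reached a median of 244.5 bp upstream and 602.5 bp downstream, and further downstream than upstream in 28 (82.4%). Over the 5746 protein-coding genes of this kind the medians were 221 bp and 542 bp and the share 78.5%.

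**Figure D4:**
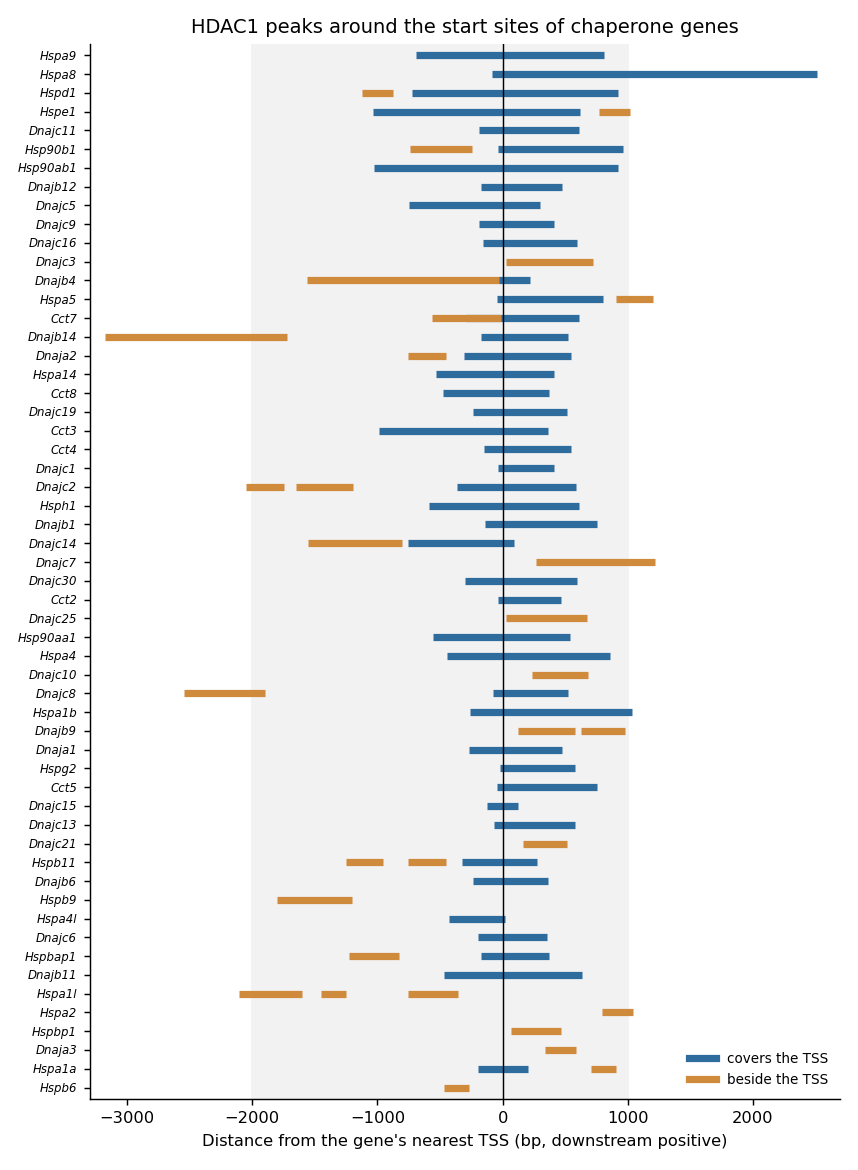
Position of every HDAC1 peak at the 56 bound chaperone genes as distance in bp from the nearest TSS of that gene (horizontal axis, downstream to the right, window shaded), with peaks that cover the TSS in blue, the others in orange and the genes ordered by best rank. A peak covers a TSS in 44 of the genes, and that of Hspa8 reaches 2515 bp downstream.

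The map of peak positions shows the long peaks in the upper rows, where the ranks are best. Hspa1a and Hspb6, with peaks of 200 bp, stand in the lowest ones.

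Where the proteins work was set beside the peaks with short lists of well-known members, which were made after the values had been seen and are a description only. The lists are incomplete, and the share of all protein-coding genes to set beside them is 44.1%. Bound and unbound members were left out of them, among the unbound ones Dnajb7, Dnajc4, Dnajc18 and Dnajc28. Dnajb7, named above for expression in testis, is not in the testis list. The share of a list therefore depends on which members were picked and is not that of all chaperones at that place. The mitochondrial list, for example, leaves out Grpel1, without a peak, and Trap1, with a peak, which do not match the symbol rule. Of 10 genes listed for the ER, 9 had a peak (Hsp90b1, Hspa5, Dnajb9, Dnajb11, Dnajb12, Dnajb14, Dnajc1, Dnajc3 and Dnajc10), with a median best rank of 2106, and Hspa13 had none. The 8 genes listed for the mitochondria (Hspa9, Hspd1, Hspe1, Dnaja3, Dnajc11, Dnajc15, Dnajc19 and Dnajc30) had a peak, with a median best rank of 1703. The shared peak of Hspd1 and Hspe1 at rank 286 counts for both genes in this median. The median is therefore not set against that of the ER list. Of 10 genes listed for testis or sperm Hspa1l, Hspa2 and Hspb9 were bound, and Cct6b, Cct8l1, Dnajb3, Dnajb8, Dnajb13, Dnajc5b and Dnajc5g were not. All peaks of Hspa1l and Hspb9 were nearest to the TSS of another gene. Of 5 listed for heart or skeletal muscle Hspb6 was bound, and Hspb2, Hspb3, Hspb7 and Hspb8 were not.

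The promoter sequence moved with these differences. CpG density was measured as the observed over the expected number of CpG dinucleotides within 500 bp of the reference TSS. Its median was 0.83 (0.25 to 1.04) in the 56 bound chaperone genes and 0.53 (0.11 to 0.79) in the 27 unbound ones, so all 35 genes at 0.8 or above were bound (100.0%, 90.1 to 100.0%). Between 0.6 and 0.8 a peak was present at 14 of 24 (58.3%, 38.8 to 75.5%), between 0.4 and 0.6 at 6 of 15 (40.0%, 19.8 to 64.3%) and under 0.4 at 1 of 9 (11.1%, 1.99 to 43.5%). A peak at any TSS counted, whereas CpG was measured at the reference TSS alone. The bound gene under 0.4, Dnajc25 (0.25), had its peak at another TSS, outside the window of the reference TSS. The same held for Dnajc6 (0.84) and Hspa2 (0.83).

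All protein-coding genes showed the same order, with 6.58%, 30.1%, 68.7% and 91.8% bound from the lowest CpG class to the highest. With the all-gene share of its own CpG class given to each chaperone gene, 53.7 of the 83 (64.8%) would have a peak, beside the 56 (67.5%) counted. The median CpG value was 0.84 in the ER list and 0.86 in the mitochondrial list, and 0.42 and 0.41 in the testis and muscle lists. The part of CpG density in the shares was not tested.

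**Figure D5:**
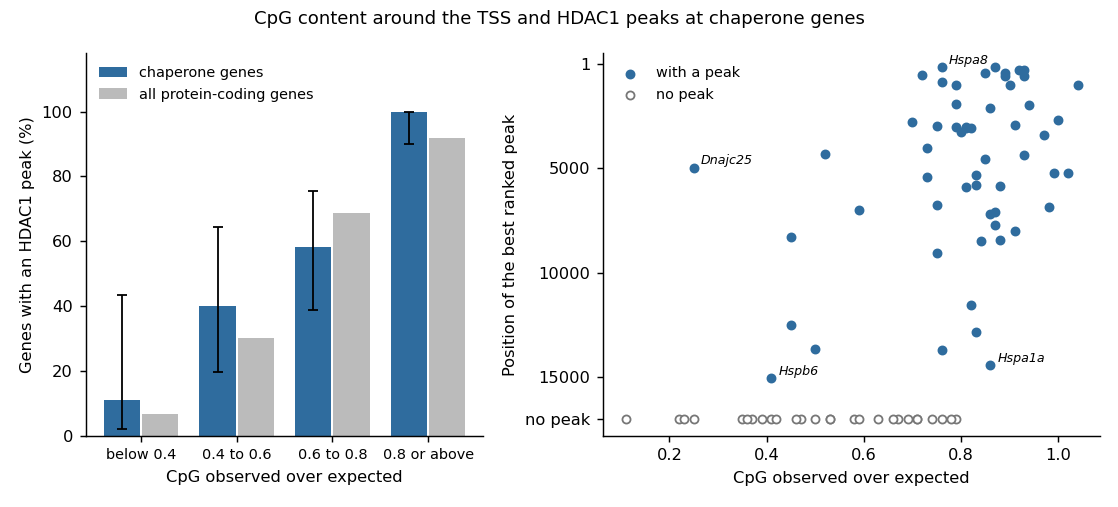
Percent of genes with an HDAC1 peak (vertical axis) in 4 classes of CpG observed over expected at the promoter, for the chaperone genes in blue with 95% Wilson intervals and for all protein-coding genes in grey, at the left, and the best rank of each chaperone gene against its CpG value at the right, with open points for genes without a peak. The chaperone share goes from 11.1% in the lowest class to 100.0% in the highest, and that of all genes from 6.58% to 91.8%.

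The plot by CpG class shows the chaperone genes beside all genes of like composition. Each all-gene share lay within the interval of the chaperone genes of that class.

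Motifs known from the regulation of chaperone genes were searched on both strands from 250 bp upstream to 50 bp downstream of the reference TSS. The heat shock element, 3 alternating units bound by heat shock factors and written as GAANNTTC followed after any 2 bases by GAA, was found at 3 of 83 chaperone genes (3.61%) and 0.49% of all genes. Those 3 were Hsp90aa1, Hspd1 and Hspe1, which all had a peak. The shorter form GAANNTTC, which every longer match contains, was found at 15 chaperone genes (18.1%) and 7.5% of all genes, and 9 of the 15 had a peak. A match is a run of letters and not a measured binding site, and only the exact letters were counted. Hspa1a, Hspa1b, Dnajb1 and Hspb1 matched the shorter form alone. The counts therefore do not say which promoters lack a working element.

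The heat shock element of Hsp90aa1 spans the TSS, with its first base 4 bp upstream, at chr12:110696387-110696399 on the minus strand. It is printed because it is the only one of the 3-unit matches outside the Hspd1-Hspe1 promoter, and all its bases, in capitals as the match, lay inside the peak at rank 5218.
Hsp90aa1: TTCCGGAAGGTTC

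Hspb1, a heat-inducible gene without a peak, is shown as the contrast. The 250 bp upstream of its TSS, at chr5:135887669-135887918 on the plus strand, hold 2 matches to GAANNTTC, in capitals, that end 110 bp and 90 bp upstream. None of these bases was covered by an HDAC1 peak.
Hspb1: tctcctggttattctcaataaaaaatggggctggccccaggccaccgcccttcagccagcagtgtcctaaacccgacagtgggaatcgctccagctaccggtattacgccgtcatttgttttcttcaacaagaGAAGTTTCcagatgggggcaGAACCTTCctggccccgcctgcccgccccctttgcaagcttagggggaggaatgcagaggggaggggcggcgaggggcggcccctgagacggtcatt

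The ER stress element, written as CCAAT followed after any 9 bases by CCACG, through which the unfolded protein response acts, was found at 2 chaperone genes (2.41%), Hsp90b1 and Dnajc3, and at 0.11% of all genes. Here too only the exact letters were counted, and Hspa5 (BiP) had no match to them. The 250 bp upstream of each TSS are printed 5′ to 3′ on the coding strand, with the matches in capitals, to show where they lie relative to the HDAC1 peaks. They are at chr10:86705510-86705759 on the minus strand for Hsp90b1 and at chr14:118937726-118937975 on the plus strand for Dnajc3.
Hsp90b1: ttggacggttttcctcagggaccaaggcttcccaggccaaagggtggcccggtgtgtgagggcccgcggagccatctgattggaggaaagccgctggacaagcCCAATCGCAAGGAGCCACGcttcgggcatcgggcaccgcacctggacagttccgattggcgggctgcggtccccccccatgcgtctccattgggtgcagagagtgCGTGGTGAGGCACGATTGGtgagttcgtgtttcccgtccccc
Dnajc3: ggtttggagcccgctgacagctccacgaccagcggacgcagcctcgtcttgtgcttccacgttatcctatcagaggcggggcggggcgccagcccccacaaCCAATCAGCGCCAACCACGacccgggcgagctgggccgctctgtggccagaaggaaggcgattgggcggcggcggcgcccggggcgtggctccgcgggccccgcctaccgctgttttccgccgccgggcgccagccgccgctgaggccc
Counted to the base nearest to the TSS, Hsp90b1 had one match 129 bp upstream, outside its peaks, and another on the other strand 24 bp upstream, of which 17 of 19 bases lay inside a peak. The match of Dnajc3, 131 bp upstream, lay outside its peak, which ran from 24 bp to 723 bp downstream of the TSS.

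Genes that work with these chaperones but do not match the symbol rule were bound in 32 of 42 cases (76.2%), against 44.1% of all protein-coding genes. The list was made with earlier results of these data known, and its CpG values were not compared. Of 12 HSP70 partners 11 had a peak, the best ranked at the exchange factor gene Bag5 (rank 137, 1150 bp), and the mitochondrial exchange factor gene Grpel1 had none. Of 9 genes listed with HSP90 8 were bound, without Ahsa1, an activator of the HSP90 ATPase. They include Trap1 (rank 3557, 600 bp), which is itself the HSP90 of mitochondria and is left out of the 3 HSP90 genes above by its symbol. Of the 4 heat shock factor genes Hsf1, the main regulator of the heat shock response, had a peak of 1400 bp at rank 520, Hsf2 stood at rank 3440 and Hsf4 at 5164, and Hsf5 had none. Tcp1 and the prefoldin genes, which deliver proteins to CCT, had a peak in 4 of 7 cases, and the 10 ER and other chaperones in 6, led by Pdia3 (rank 707, 1850 bp), a protein disulfide isomerase. The 4 without a peak were Clpb, Clu, Cryaa and Cryab. Cryaa and Cryab encode small heat shock proteins and are left out of the 7 small heat shock protein genes above by their symbols.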

How the data were processed

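HDAC1 ChIP-seq of E11.5 limb buds comprised 4 ChIP and 3 input samples. Bowtie2 2.2.5 and mm10 are named in the submitters' processing notes. The authors called peaks with CisGenome and deposited 1 ranked list for all samples, whose columns are coordinates and no measurement: chromosome, start and end of each peak in bp. This list has no count, signal or per-sample column, so replicates could not be compared and no p-value is given. An enrichment and a false discovery rate for each peak, over all replicates together, are in the study's supplementary data and were not used here.

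Peaks were read as 1-based with both ends included and overlapped with TSS windows of protein-coding transcripts (GENCODE M21 basic). The reference TSS of a gene is the one used by most of its protein-coding transcripts, and the most 5′ one in a tie. Sequences were read from GRCm38 (RefSeq). Intervals are 95% Wilson intervals. Overlap calls were tested on simulated data. Python 3.11.15, pandas 2.3.3, scipy 1.17.1 and pysam 0.24.0 were used.

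The members, lists and alternatives were chosen with earlier results of these data known. Named with values were all HSP90, HSP70/HSP110, chaperonin and Cct genes. In the other families, the 5 best ranked, the lowest ranked and the unbound genes were named. The 5 longest peaks, shared peaks and genes with more than 1 peak were added. Names outside this rule, such as neighbours and the partner genes singled out, were chosen after their values were seen. Alternatives were other windows (5 kb, 500 bp), other TSS sets, a larger overlap, merged peaks, the first 7673 peaks, fewer symbols, and peaks credited to the nearest gene alone.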

Additional observations from a re-analysis of the deposited data

How the results depend on the processing

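The share of chaperone genes with a peak was recomputed under 10 alternatives, which with the family shares and other values gave 109 values. Of these 105 stayed within the interval of the value reported, which is wide for small families: the small heat shock protein share of 28.6% was 14.3% with 500 bp windows and with the nearest-gene rule. The 4 others came from using only the first 7673 peaks of the list, which by construction keeps fewer peaks. The overall share was then 51.8%, against 30.0% of all genes, and the shares were 50% for HSP70 and HSP110, 0.0% for the small heat shock proteins and 25% for the other Hsp symbols. Under the remaining alternatives the overall share was between 62.7% and 69.9%. The lowest came from crediting each peak to the gene with the nearest TSS alone, which lost Dnajc7, Dnajc25, Hspa1l and Hspb9, and the highest from windows of 5 kb on both sides, which gained Dnajb5 and Dnajc4. The nearest-gene rule and the TSSs of the comprehensive annotation (68.7%, with Hspa12a gained) were added after seeing the data. No paired analysis was possible because the peak list holds no value for a single sample, and for the same reason no replicate could be left out. The list gives no reads per peak, so an unbound gene may hold a site too weak to be listed.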

Other observations

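Other promoter motifs were counted in the same window as the heat shock and ER stress elements. The GC box GGGCGG, a binding motif of SP1-type factors, was found at 55 of 83 chaperone genes (66.3%) and 44.8% of all genes, in 43 of the 56 bound and 12 of the 27 unbound chaperone genes. CCAAT was found at 31 (37.3%, all genes 38.7%), the TATA box TATAAA at 7 (8.43%, all genes 12.5%), the ETS motif CCGGAAGT at 4 (4.82%, all genes 4.92%) and the palindromic NRF1 motif at 2 (2.41%, all genes 1.21%).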
